A study of Mus musculus with 43 samples.

Results

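The cyclin genes Ccnd1, Ccnd2, Ccnd3, Ccne1, Ccne2, Ccna1, Ccna2 and Ccno were followed in mouse germ cell cultures that carry or lack Stra8, before and after retinoic acid (RA). They were taken by gene name from the deposited table, and these 8 genes are 8 of its 46983 rows. All 8 passed the filter on low values that left 16297 genes for testing.

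Cyclins are the regulatory partners of cyclin-dependent kinases (CDKs), and their rise and fall moves a cell through its division cycle. D cyclins, induced by growth factors, bind Cdk4 and Cdk6 and start the phosphorylation of RB proteins, which frees E2F transcription factors. E cyclins with Cdk2 then start DNA replication, and A cyclins carry the cell through S phase towards mitosis. Ccna1 is known in the mouse for its need in male meiosis, and Ccno for the multiplication of centrioles in multiciliated cells. In the testis, RA turns undifferentiated spermatogonia, which divide slowly under GDNF, into differentiating spermatogonia that pass through a set series of divisions before meiosis, and Stra8 is an RA target needed for meiotic entry.

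The cultures came from THY1-positive testis cells of Stra8-knockout (KO) or wild-type (WT) mice. All were kept on STO feeders, a mouse fibroblast line, at passages 3 to 12, and the medium held no serum but GDNF at 20 ng/ml, FGF2 at 1 ng/ml and GFRA1 at 150 ng/ml. KO cultures and WT cultures each received all-trans RA or 0.01% DMSO, the solvent, for 4, 8 or 24 h, or were taken untreated at 0 h. The labels write the RA dose as 0.01 M without saying whether this is the concentration in the medium. The 14 groups hold 3 libraries each, from identifiers KO12, KO20 and KO21 or WT17, WT23 and WT25, called lines here because each recurs in every condition. The labels do not say whether a line is 1 mouse, so p-values speak for these lines and not for further mice. They rest on the scatter of libraries around their group means, pooled over all 14 groups. In the main fit this scatter includes the 3 libraries called doubtful below. Which line a library came from is left out, except where a replicate block is named, although each line recurs in every condition. Genotype and line cannot be told apart beyond 3 lines against 3. In these mixed cultures, fewer cells of a type and less RNA per cell cannot be told apart.

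The DMSO libraries at 4 h labelled KO20, WT23 and WT25 are doubtful, and the counts and calls of the 8 genes below are also given without these 3 where they change. The library labelled KO20 DMSO 4 h differed from KO20 at 24 h of RA by an SD of 0.0402 over 7863 genes, against 0.0999 for the next closest of all pairs of libraries. WT25 DMSO 4 h had its nearest neighbour at an SD of 0.503. WT23 DMSO 4 h had Stra8 at log2 11.59, against 7.93 in WT17 of the same group, although its nearest neighbours over all these genes were WT17 DMSO 4 h (0.142) and WT23 DMSO 8 h (0.146). At 24 h of RA Stra8 lay at 9.47 to 9.79 in KO libraries and at 14.10 to 14.73 in WT libraries. In untreated WT cultures it was 8.91 in WT17, above the 7.65 and 7.63 of WT23 and WT25; what the comparisons with untreated cultures give without line WT17 stands beside them where a call changes. The labels do not say which part of Stra8 the KO allele lacks, and reads from what remains may be counted, so the KO level does not check the loss of the protein. Of 15 feeder fibroblast markers, 14 reached the filter level in some library (not Lum), and their summed level over libraries other than the 3 ran from 23660 to 60890. The 12 germ cell markers summed to 76190 to 111200. The Sertoli markers Amh and Fshr, the Leydig markers Cyp17a1 and Insl3, the macrophage markers Adgre1 and Csf1r, and the spermatid markers Pgk2, Prm1 and Acrv1 never reached the filter level. The rest of these lists did reach it: 6 of 8 Sertoli, 3 of 5 Leydig, 3 of 5 macrophage and 6 of 9 spermatocyte and spermatid markers. All 4 endothelial markers reached it too, so none of these cell types is shown to be absent. The read depth is unknown, since the deposited values are log2 levels scaled between libraries by the authors.

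Per kilobase of the deposited gene length, Ccnd2 was the most abundant of the 8, with an authors' mean signal of 3104. This was 2.97 times the 1046 of Ccnd1 and 12.6 times the 246 of Ccnd3, and above 98.8% of the genes tested. Ccna2, the A cyclin of dividing body cells, had 1162 per kilobase, and the E cyclins had 334 for Ccne1 and 256 for Ccne2. Ccno with 28.65 and Ccna1 with 11.03 were low, Ccna1 above only 14.8% of the genes tested. Ratios between genes rest on the deposited lengths, such as 8775 bases for Ccnd3 and 3835 for Ccnd1, which may differ from the transcripts present. Before division by length, the mean signal was 2162 for Ccnd3, 4013 for Ccnd1 and 29200 for Ccnd2. The deposited values appear to come from a transform that holds genes with few reads close to their own mean. If so, changes of Ccna1 and Ccno may be understated. The authors' own log2 changes in WT at 24 h of RA, from another kind of fit, were larger in size for abundant members too. They were -1.05 for Ccnd2 and -0.753 for Ccnd1, against -0.703 and -0.525 in the fit used here. Changes of the other members may therefore be understated as well, and the cause of this gap was not tested.

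**Figure D1:**
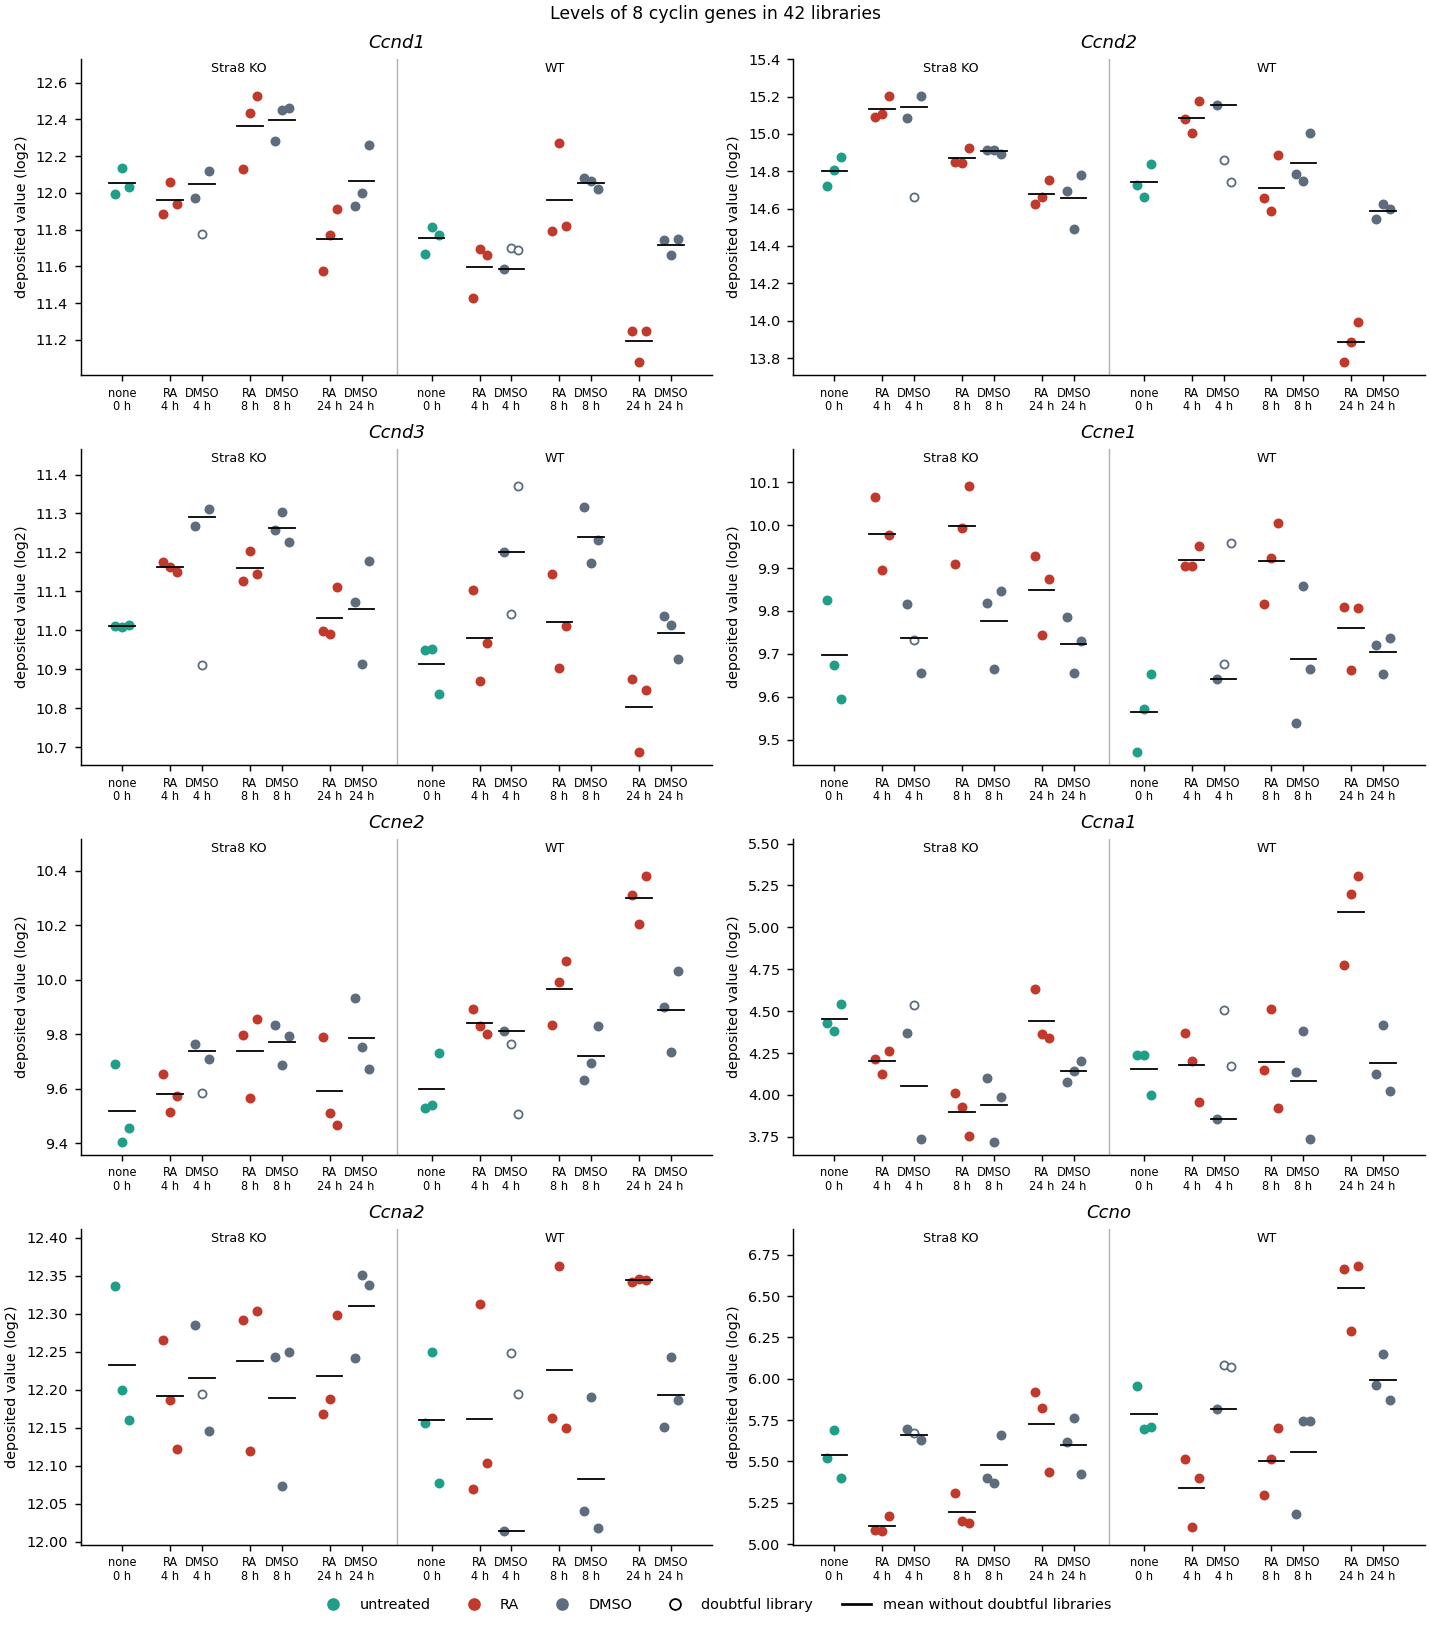
Deposited log2 level (vertical axis, a separate range in each panel) of 8 cyclin genes in each of 42 libraries, with Stra8 KO groups left of WT groups and, at each time, RA left of DMSO. Lines mark group means without the 3 doubtful libraries, drawn open; WT at 24 h of RA is the lowest group for Ccnd1, Ccnd2 and Ccnd3 and the highest for Ccne2, Ccna1, Ccna2 and Ccno.

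At 24 h of RA the cyclins of WT cultures moved in both directions. In KO cultures 0 of the 8 members passed the test, and 1 (Ccnd1) had an unadjusted p under 0.05. In WT cultures 5 of 8 passed: Ccnd1 and Ccnd2 fell, and Ccne2, Ccna1 and Ccno rose. Every test is limma over all 14 groups with Benjamini-Hochberg adjustment over the 16297 genes and a threshold of 0.05. In the same comparisons 8.84% of all genes tested were called in KO and 24.2% in WT, or 18.5% and 37.1% without the 3 doubtful libraries. Without them, the members called at 24 h were 1 in KO (Ccnd1, lower) and 6 in WT, with Ccnd3 added on the lower side.

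The difference in the RA effect between the genotypes at 24 h was tested as an interaction, KO minus WT. It was called for 2 of the 8 members, Ccnd2 and Ccne2, as it was for 8.45% of all genes (19.7% without the 3 libraries, where the same 2 members were called). With all libraries, Ccnd1, Ccna1 and Ccno had a call in WT and none in KO, which does not show that the genotypes differ. Ccnd3, Ccne1 and Ccna2 had a call in neither. At 4 and 8 h limma called the interaction for 0 members, none of which had an unadjusted p under 0.05. It was called at 4 h for 0% of all genes, with 1752 genes at an unadjusted p under 0.05, and for 0.00614% at 8 h. Without the 3 libraries the shares were 0.00614% at 4 h and 0.454% at 8 h, with 0 members.

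**Figure D2:**
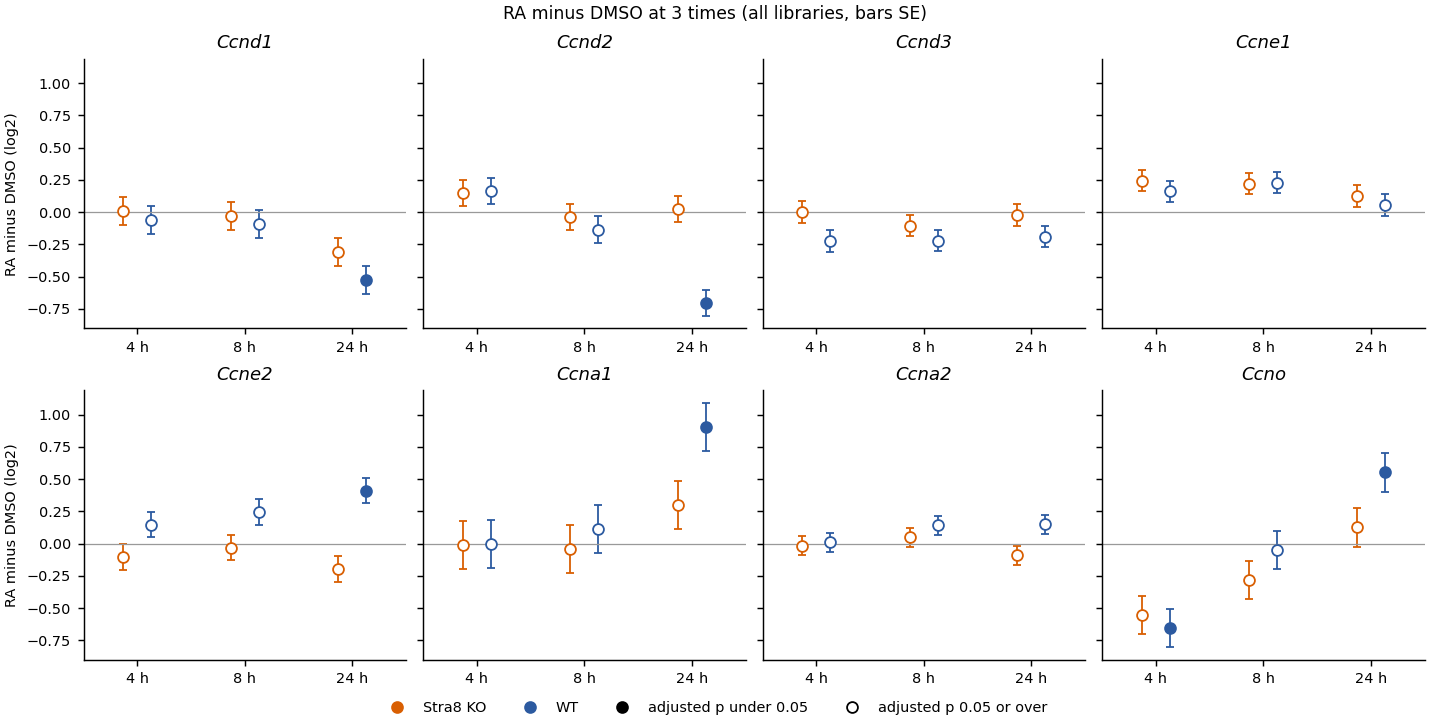
RA minus DMSO in log2 units (vertical axis) at 4, 8 and 24 h for each cyclin, Stra8 KO left of WT at each time, with standard errors of the model (n = 3 lines per group). Filled points passed an adjusted p of 0.05; at 24 h these are 5 WT points, from -0.70 for Ccnd2 to 0.91 for Ccna1, and no KO point.

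Ccnd2 (ENSMUSG00000000184.12, chr6:127125162-127152193, minus strand, GRCm38), the main D cyclin of these cultures, gave the clearest difference between genotypes. At 24 h its log2 level was 14.63, 14.66 and 14.75 in RA-treated KO lines, against 14.70, 14.49 and 14.78 in DMSO-treated KO lines. It was 13.78, 13.89 and 13.99 in RA-treated WT lines, against 14.55, 14.62 and 14.60 in DMSO-treated WT lines. The KO groups overlapped, whereas every RA-treated WT library lay below every other library of the gene. RA minus DMSO was 0.02 ± 0.10 in KO (SE, limma adjusted p = 0.929) and -0.70 ± 0.10 in WT (adjusted p = 4.04e-06), which is 1.63-fold lower. The lines of WT differed from their DMSO partners by -0.764 to -0.606. The interaction was 0.73 ± 0.14 (limma adjusted p = 0.00116). In the order of group means, with the 3 doubtful libraries left out, the 4 h groups stood at the top and WT at 24 h of RA at the bottom. Only WT RA 4 h and its next lower group, KO DMSO 8 h, and WT DMSO 24 h and WT RA 24 h were neighbours whose ranges did not overlap.

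Ccnd1 (ENSMUSG00000070348.4, chr7:144929931-144939869, minus strand), the D cyclin best known as a growth factor target, fell under RA at 24 h in WT, and its mean was higher in KO than in WT in every matched condition. At 24 h it was 11.57, 11.77 and 11.91 in RA-treated KO lines, against 11.93, 11.9997 and 12.26 in DMSO-treated KO lines. In WT lines it was 11.25, 11.08 and 11.25 under RA, against 11.74, 11.66 and 11.75 under DMSO. Within each genotype the RA and DMSO libraries did not overlap. RA minus DMSO was -0.31 ± 0.11 in KO, with a limma adjusted p of 0.07 that came to 0.0215 with the line as a replicate block and 0.0436 when the 3 libraries were left out. In WT it was -0.53 ± 0.11 (limma adjusted p = 0.000485), 1.44-fold lower. The interaction was 0.21 ± 0.15 (limma adjusted p = 0.446, 95% interval -0.10 to 0.53). In the order of group means only WT RA 24 h, the lowest, lay apart from its neighbour, WT DMSO 4 h; the 8 h groups of KO were the highest.

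Ccnd3 (ENSMUSG00000034165.16, chr17:47505051-47599691, plus strand), the least abundant D cyclin here, changed little. At 24 h it was 10.997, 10.990 and 11.11 in RA-treated KO lines, against 11.07, 10.91 and 11.18 in DMSO-treated KO lines. In WT lines it was 10.88, 10.69 and 10.85 under RA, against 11.04, 11.01 and 10.93 under DMSO. The KO groups overlapped and the WT groups did not. RA minus DMSO was -0.02 ± 0.08 in KO (limma adjusted p = 0.924) and -0.19 ± 0.08 in WT (adjusted p = 0.103). Without the 3 doubtful libraries the WT value had a limma adjusted p of 0.0171. WT lines were also lower under RA at 8 h in 3 of 3 lines, with line differences of -0.27 to -0.172. Their mean was -0.22 ± 0.08 (limma adjusted p = 0.145, or 0.0169 without the 3 libraries). KO lines were lower at 8 h as well in 3 of 3, with line differences of -0.131 to -0.081. Their mean was -0.10 ± 0.08 (limma adjusted p = 0.905, or 0.478 without the 3 libraries). In neither genotype did the RA and DMSO groups overlap at 8 h. In the order of group means only WT DMSO 4 h and KO RA 4 h were neighbours with no overlap.

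Of the E cyclins, Ccne2 rose at 24 h of RA in WT and Ccne1 was not called. Ccne2 (ENSMUSG00000028212.16, chr4:11191351-11204779, plus strand) was 9.79, 9.51 and 9.47 in RA-treated KO lines, against 9.93, 9.75 and 9.67 in DMSO-treated KO lines. It was 10.31, 10.20 and 10.38 in RA-treated WT lines, against 9.90, 9.73 and 10.03 in DMSO-treated WT lines. The RA-treated WT libraries were the highest of all, above every DMSO library, while the KO groups overlapped with RA on the low side in 3 of 3 lines. RA minus DMSO was -0.20 ± 0.10 in KO (limma adjusted p = 0.249, or 0.0192 with the line as a replicate block and without the 3 libraries) and 0.41 ± 0.10 in WT (adjusted p = 0.00229), 1.33-fold higher. The interaction was -0.61 ± 0.14 (limma adjusted p = 0.00456), so the RA effects of the genotypes differed. At 8 h Ccne2 was already 0.199 to 0.298 higher in the 3 RA-treated WT lines than in their DMSO partners, a mean of 0.25 ± 0.10 (limma adjusted p = 0.173, or 0.00501 with the replicate block and without the 3 libraries). WT RA 24 h was the one group whose range lay apart from its neighbour in the order of means, here WT RA 8 h.

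Ccne1 (ENSMUSG00000002068.16, chr7:38097984-38107534, minus strand) showed its highest levels at 4 and 8 h of RA in both genotypes. At 8 h it was 9.91, 9.99 and 10.09 in RA-treated KO lines, against 9.82, 9.67 and 9.85 in DMSO-treated KO lines. It was 9.82, 9.92 and 10.01 in RA-treated WT lines, against 9.54, 9.86 and 9.67 in DMSO-treated WT lines. The KO groups did not overlap and the WT groups did, and all 6 lines were higher under RA. RA minus DMSO was 0.22 ± 0.08 in KO (limma adjusted p = 0.203) and 0.23 ± 0.08 in WT (adjusted p = 0.117). The KO value had a limma adjusted p of 0.0807 without the 3 libraries, 0.075 with the replicate block and 0.0198 with both changes. The WT value had a limma adjusted p of 0.0434 without the 3 libraries, 0.0466 without WT25 DMSO 4 h alone, and 0.0432 with the replicate block. By 24 h the difference was 0.13 ± 0.08 in KO and 0.06 ± 0.08 in WT (limma adjusted p = 0.415 and 0.679). All 14 groups overlapped their neighbours in the order of means.

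The promoter of Ccne1 is shown because it held the one match, among the members' windows, to the CNCCTCAG motif known from STRA8 and its partner MEIOSIN. Ccno's is shown for the member with the widest span of levels. Windows are the 250 bases before the RefSeq start (build GRCm38.p6) on the gene's strand, and the Ccne1 window is printed without its 44 bases inside the deposited gene model; capitals mark the match, read here on the opposite strand.
Ccne1, chr7:38107535-38107740, minus strand: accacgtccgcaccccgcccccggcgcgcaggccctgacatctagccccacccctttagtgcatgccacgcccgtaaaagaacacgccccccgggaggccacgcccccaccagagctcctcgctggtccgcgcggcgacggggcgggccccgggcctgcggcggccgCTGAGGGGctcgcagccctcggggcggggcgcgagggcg
Ccno, chr13:112987552-112987801, plus strand: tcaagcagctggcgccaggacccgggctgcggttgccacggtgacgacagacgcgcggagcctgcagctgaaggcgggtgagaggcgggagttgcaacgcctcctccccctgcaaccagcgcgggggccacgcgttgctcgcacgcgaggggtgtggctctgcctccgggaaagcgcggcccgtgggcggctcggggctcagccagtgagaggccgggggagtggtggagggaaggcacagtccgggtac
The match in Ccne1 runs from position -83 to -76 before the start, and 6.41% of 32817 RefSeq windows of 250 bases hold CNCCTCAG on either strand. The RefSeq table had windows for Ccne1, Ccnd3, Ccna1 and Ccno. They were also searched on both strands for the E2F letters TTTCCCGC and TTTGGCGC, held by 0.893% and 0.417% of all windows, for CCAAT (33.8%) and for the RAR recognition letters AGGTCA (14%). AGGTCA repeated at a spacing of 5 letters, held by 0.00914%, was searched too. Ccno's window held none of these, Ccna1's and 1 of the Ccnd3 windows held CCAAT, and the other Ccnd3 window held AGGTCA. The windows with CCAAT lie wholly inside the deposited gene models. No motif overlapped another in these windows.

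Of the A cyclins, Ccna1 rose at 24 h of RA in WT and Ccna2 was not called. Ccna1 (ENSMUSG00000027793.6, chr3:55045469-55055501, minus strand), the germline A cyclin, was 4.63, 4.36 and 4.34 in RA-treated KO lines at 24 h, against 4.08, 4.14 and 4.20 in DMSO-treated KO lines. It was 4.77, 5.20 and 5.31 in RA-treated WT lines, against 4.12, 4.42 and 4.02 in DMSO-treated WT lines. RA and DMSO libraries did not overlap in either genotype, and the RA-treated WT libraries were the 3 highest. For RA minus DMSO the value was 0.30 ± 0.19 in KO (limma adjusted p = 0.377) and 0.91 ± 0.19 in WT (adjusted p = 0.000449), 1.87-fold higher. The interaction was -0.60 ± 0.26 (limma adjusted p = 0.163, 95% interval -1.14 to -0.07). Its limma adjusted p was 0.0748 without the 3 libraries, 0.0773 with the replicate block and 0.0939 after quantile normalization. With the replicate block and without the 3 libraries that p was 0.024. WT RA 24 h lay apart from its neighbour, untreated KO, and KO RA 24 h lay apart from KO RA 4 h; the other neighbours overlapped.

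Ccna2 (ENSMUSG00000027715.9, chr3:36564865-36572150, minus strand) was the steadiest member, with group means from 12.01 to 12.34. At 24 h it was 12.17, 12.19 and 12.30 in RA-treated KO lines, against 12.24, 12.35 and 12.34 in DMSO-treated KO lines. It was 12.34, 12.35 and 12.34 in RA-treated WT lines, against 12.15, 12.24 and 12.19 in DMSO-treated WT lines. KO lines were lower under RA in 3 of 3 and WT lines higher in 3 of 3, and the WT groups did not overlap. RA minus DMSO came to -0.09 ± 0.07 in KO and 0.15 ± 0.07 in WT (limma adjusted p = 0.517 and 0.14), and the WT value passed after quantile normalization (adjusted p = 0.0289) and with the replicate block and without the 3 libraries (0.0197). The interaction was -0.24 ± 0.10 (limma adjusted p = 0.154, or 0.0479 with the replicate block). In the order of means the only neighbours with no overlap were WT DMSO 8 h and the single remaining library of WT DMSO 4 h, the lowest.

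Ccno (ENSMUSG00000042417.4, chr13:112987802-112990778, plus strand) had the widest span of group means, 1.44 on the log2 scale or 2.71-fold, and in WT it fell at 4 h and rose at 24 h of RA. At 4 h it was 5.09, 5.08 and 5.17 in RA-treated KO lines, against 5.70, 5.67 and 5.63 in DMSO-treated KO lines. It was 5.51, 5.10 and 5.40 in RA-treated WT lines, against 5.82, 6.08 and 6.07 in DMSO-treated WT lines. Neither genotype's groups overlapped, and all 6 lines were lower under RA. Of the DMSO controls in this count, KO20, WT23 and WT25 are doubtful. For RA minus DMSO the value was -0.55 ± 0.15 in KO (limma adjusted p = 0.11). The KO value had a limma adjusted p of 0.0849 without the 3 libraries, 0.0636 with the replicate block and 0.0484 with both changes. In WT it was -0.65 ± 0.15 (limma adjusted p = 0.0106), 1.57-fold lower. This WT call rests on doubtful controls: limma adjusted p was 0.0651 without WT25 DMSO 4 h, 0.0735 without line WT23 and 0.175 without line WT25. With WT17 as the only control, its spread taken to be that of the other groups, the difference was -0.48 (adjusted p = 0.453).

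Untreated cultures gave a second control for the early Ccno level: 5.52, 5.69 and 5.40 in KO lines and 5.96, 5.69 and 5.71 in WT lines. RA at 4 h lay below untreated in every line of both genotypes. The differences were -0.43 ± 0.15 in KO (limma adjusted p = 0.0721, or 0.0469 without the 3 libraries) and -0.45 ± 0.15 in WT (adjusted p = 0.0486). The WT call was lost when any of the 6 lines was left out, with adjusted p from 0.0569 without KO21 to 0.228 without WT23. At 24 h Ccno was 5.92, 5.82 and 5.44 in RA-treated KO lines, against 5.62, 5.76 and 5.42 in DMSO-treated KO lines. It was 6.67, 6.29 and 6.68 in RA-treated WT lines, against 5.97, 6.15 and 5.87 in DMSO-treated WT lines, so the groups overlapped in KO and not in WT. RA minus DMSO came to 0.12 ± 0.15 in KO (limma adjusted p = 0.7) and 0.55 ± 0.15 in WT (adjusted p = 0.00631, or 0.107 without line WT25), 1.47-fold higher. The interaction was -0.43 ± 0.21 (limma adjusted p = 0.231, 95% interval -0.86 to 0.00). WT RA 24 h lay apart from WT DMSO 24 h, and WT DMSO 24 h from WT17 DMSO 4 h, in the order of means.

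Counts of members called at the earlier times were small. At 4 h of RA against DMSO, limma called 0 of 8 in KO, where Ccne1 and Ccno had an unadjusted p under 0.05, and 1 in WT (Ccno). The shares of all genes called were 0.46% in KO and 3% in WT, or 2.75% and 1.41% without the 3 libraries, when 0 members were called in either genotype. At 8 h limma called 0 members in either genotype, against 3.21% of all genes in KO and 5.12% in WT; an unadjusted p under 0.05 was reached by Ccne1 in KO and by Ccnd3, Ccne1 and Ccne2 in WT. Without the 3 libraries the shares were 6.55% in KO, with 0 members, and 12% in WT, with Ccnd3 and Ccne1. With the replicate block as well, limma also called Ccnd2 (-0.14, adjusted p = 0.0382) in WT at 8 h, and in KO at 4 h Ccne1 (0.24, adjusted p = 0.019).

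Since the 4 h DMSO groups hold the doubtful libraries, RA at 4 h was also set against untreated cultures, from which it differs in time and solvent as well. Ccne1 was 10.07, 9.89 and 9.98 in RA-treated KO lines, against 9.83, 9.67 and 9.59 in untreated KO lines. It was 9.90, 9.91 and 9.95 in RA-treated WT lines, against 9.47, 9.57 and 9.65 in untreated WT lines. Neither pair of groups overlapped, and Ccne1 rose by 0.28 ± 0.08 in KO and 0.35 ± 0.08 in WT (limma adjusted p = 0.0291 and 0.00478). The KO call was lost without KO12, KO20 or KO21 (adjusted p = 0.108, 0.106 and 0.328) and the WT call without WT17 (0.0816). Ccnd2 rose by 0.33 ± 0.10 in KO and 0.34 ± 0.10 in WT (limma adjusted p = 0.0359 and 0.0248), and quantile normalization ended both calls (0.136 and 0.111). So did leaving out any line of the same genotype, with adjusted p of 0.0822 to 0.243 in KO and 0.0582 to 0.14 in WT, and WT23 in KO (0.0516). DMSO-treated lines that are not doubtful had Ccnd2 at 15.09 (KO12), 15.20 (KO21) and 15.16 (WT17) at 4 h, beside 15.00 to 15.20 in the RA-treated lines. The limma count was 2 of 8 members in KO and, with Ccno lower, 3 of 8 in WT, against 8.38% and 11% of all genes. Without the 3 libraries it was 3 in both, against 18.5% and 22.3%. Ccne2 in WT was 0.24 ± 0.10 (limma adjusted p = 0.115, or 0.0373 with the replicate block). Ccnd3 in KO was 0.15 ± 0.08 (limma adjusted p = 0.295, or 0.0215 with the block and without the 3 libraries).

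From 8 to 24 h of RA, Ccnd1 fell and Ccno rose in both genotypes. Time in culture differs here as well, and DMSO means of Ccnd1, Ccnd2 and Ccno moved the same way. Ccnd1 in DMSO went from 12.398 at 8 h to 12.063 at 24 h in KO, and from 12.055 to 11.718 in WT. Ccnd2 in DMSO went from 14.907 to 14.655 in KO and from 14.846 to 14.59 in WT. Ccno in DMSO was higher at 24 h in both genotypes, in WT at 5.995 against 5.556. The part of time in the RA changes was not tested. Under RA, Ccnd1 fell by 0.61 ± 0.11 in KO and by 0.77 ± 0.11 in WT (limma adjusted p = 0.00137 and 5.79e-06). Ccnd2 was -0.19 ± 0.10 in KO (limma adjusted p = 0.261, or 0.00233 with the replicate block and without the 3 libraries) and fell by 0.82 ± 0.10 in WT (adjusted p = 8.11e-07). Ccno rose by 0.53 ± 0.15 in KO and 1.04 ± 0.15 in WT (limma adjusted p = 0.0272 and 7.28e-06). The KO rise of Ccno was lost after quantile normalization (adjusted p = 0.157) and without KO12, KO20 or KO21 (0.207, 0.228 and 0.0771). Ccna1 rose by 0.90 ± 0.19 in WT (limma adjusted p = 0.000566) and was 0.54 ± 0.19 in KO (adjusted p = 0.0676, or 0.0224 without the 3 libraries and 0.0245 with the replicate block). Ccne2 rose in WT by 0.33 ± 0.10 (limma adjusted p = 0.0122, or 0.187 without WT17) and was -0.15 ± 0.10 in KO (0.383). Ccnd3 in WT was -0.22 ± 0.08 (limma adjusted p = 0.0556, 0.00641 without the 3 libraries, and under 0.05 without any 1 of them or with the replicate block). Ccne1 in WT was -0.16 ± 0.08 (limma adjusted p = 0.17, or 0.0437 with the replicate block and without the 3 libraries). In all, 2 members were called in KO and 5 in WT, against 7.31% and 25.4% of all genes. Without the 3 libraries these were 3 and 6 members against 20.5% and 39.8%.

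For time in DMSO alone, 1 of the 8 was called, Ccnd3 in WT at 8 h. Against untreated cultures, DMSO at 8 h gave Ccnd3 at 11.26, 11.31 and 11.23 in KO lines, with 11.01 in each untreated KO line. In WT lines DMSO at 8 h gave 11.32, 11.17 and 11.23, with 10.95, 10.95 and 10.84 untreated. The groups did not overlap in either genotype. The difference was 0.25 ± 0.08 in KO (limma adjusted p = 0.159, or 0.0171 without the 3 libraries). Ccnd3 rose by 0.33 ± 0.08 in WT (adjusted p = 0.0317), a call lost without KO12, KO21, WT17, WT23 or WT25 (0.051 to 0.282). Ccnd1 was 0.34 ± 0.11 in KO and 0.30 ± 0.11 in WT (limma adjusted p = 0.128 and 0.145, or 0.0311 and 0.0453 with the replicate block). Limma called 0 of 8 members in KO, where Ccnd1, Ccnd3, Ccne2 and Ccna1 had an unadjusted p under 0.05, and 1 in WT, against 1.08% and 2.25% of all genes. With the 3 libraries left out they were 1 and 1 against 5.01% and 8.86%. DMSO at 24 h against untreated gave 0 members and 0% of all genes by limma in both genotypes. At an unadjusted p under 0.05 there were 811 genes in KO and 957 in WT, Ccne2 among the members in each. Leaving out the 3 libraries, 0 members were called, with 0% of all genes in KO and 0.0859% in WT. With the replicate block as well, limma called Ccne2 at 24 h of DMSO (0.27 in KO and 0.29 in WT, adjusted p = 0.0304 and 0.0117). In KO at 8 h it then called Ccne2 (0.25) and Ccna1 (-0.51), with adjusted p of 0.00699 and 0.0156.

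KO minus WT was tested directly in 6 conditions. At 24 h of RA 6 of 8 members differed between the genotypes, against 25.6% of all genes. Relative to WT, KO cultures had Ccnd1 0.56 ± 0.11, Ccnd2 0.79 ± 0.10 and Ccnd3 0.23 ± 0.08 higher (limma adjusted p = 0.000232, 5.93e-07 and 0.0423). Ccne2 was -0.71 ± 0.10, Ccna1 -0.65 ± 0.19 and Ccno -0.82 ± 0.15, all lower in KO (limma adjusted p = 2.22e-06, 0.00916 and 0.000106). The Ccnd3 call was lost without KO12, KO21, WT17 or WT23 (adjusted p = 0.0504 to 0.191). Ccne1 at 0.09 ± 0.08 and Ccna2 at -0.13 ± 0.07 did not pass (limma adjusted p = 0.463 and 0.217). When the 3 libraries were left out, the 6 members were called as before, against 39.1% of all genes.

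At 8 h of RA 1 of 8 members was called, against 3.37% of all genes (12.1% without the 3 libraries, also with 1 member). Ccnd1 was 12.13, 12.43 and 12.53 in RA-treated KO lines, against 11.79, 12.27 and 11.82 in RA-treated WT lines. The ranges overlapped through WT23. KO minus WT was 0.40 ± 0.11 (limma adjusted p = 0.0333, and 0.143 to 0.213 without KO20, KO21, WT17 or WT25). Ccnd1 had a higher mean in KO in all 6 conditions, by 0.30 ± 0.11 untreated, 0.34 ± 0.11 in DMSO at 8 h and 0.34 ± 0.11 in DMSO at 24 h. None of these, nor the 0.37 ± 0.11 at 4 h of RA, passed (limma adjusted p from 0.362 to 1).

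Limma called 0 members between untreated KO and WT cultures, with 0% of all genes called and 479 genes at an unadjusted p under 0.05. It called 0 members at 8 and 24 h of DMSO, with 0.0123% and 0% of all genes (617 and 767 genes at an unadjusted p under 0.05). It called 0 at 4 h of RA, with 0.092% of all genes (1070 at an unadjusted p under 0.05). In the fit without the 3 libraries the counts of members stayed 0 and the shares were 0.0123% untreated, 0.0184% at 8 h of DMSO, 0.0184% at 24 h of DMSO and 0.503% at 4 h of RA. At an unadjusted p under 0.05 were Ccnd1 in these 4 conditions, Ccno at 24 h of DMSO, and Ccnd3 and Ccne2 at 4 h of RA.

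**Figure D3:**
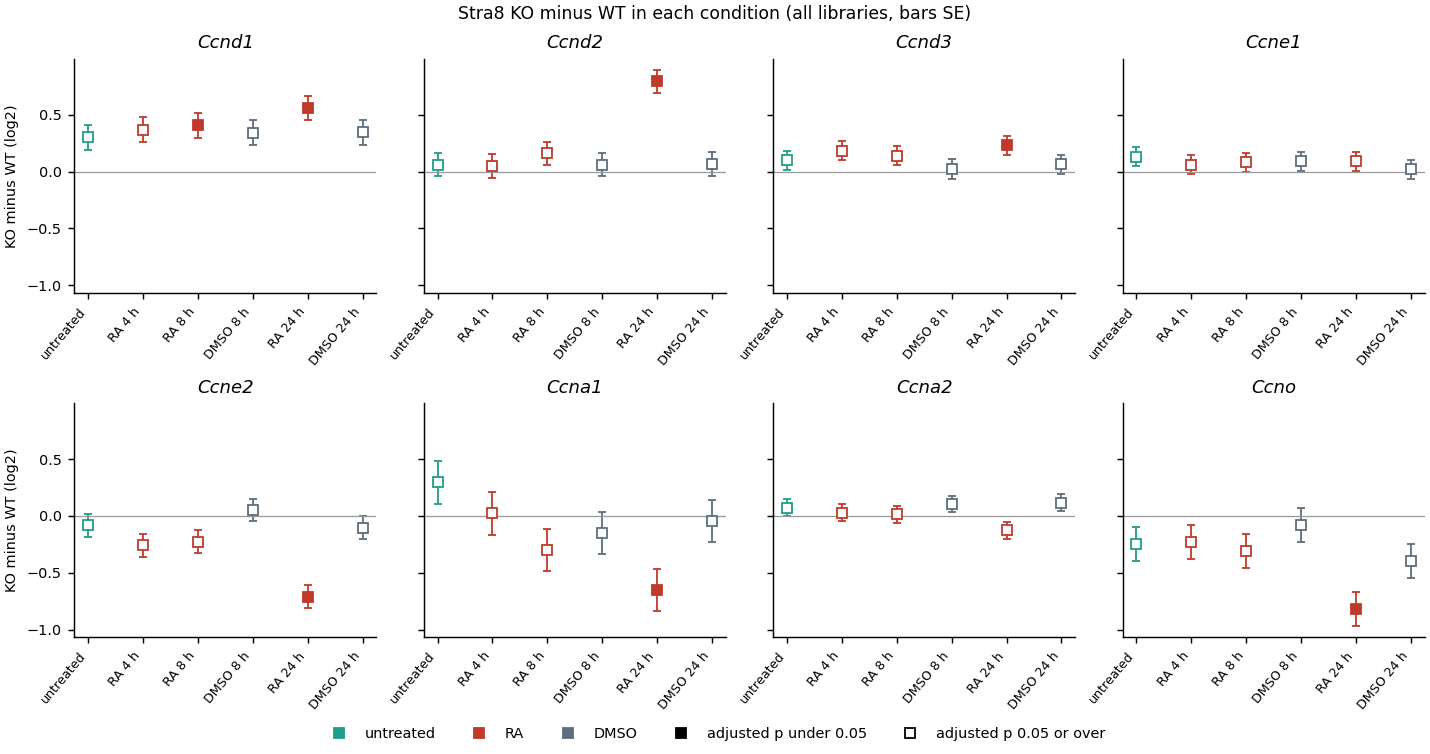
Stra8 KO minus WT in log2 units (vertical axis) for each cyclin, untreated and under RA or DMSO, with standard errors of the model (n = 3 lines per group); DMSO at 4 h, which holds the doubtful libraries, is left out. Filled squares passed an adjusted p of 0.05; apart from Ccnd1 at 8 h of RA they are all at 24 h of RA, from -0.82 for Ccno to 0.79 for Ccnd2.

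Relative makeup was computed per kilobase from the linear values, as a description with no test. The size of the shares, and whether Ccne2 stands above or below Ccne1, rest on the deposited gene lengths. At 24 h Ccnd2 made up 71.0% ± 1.2 of the D cyclin signal in RA-treated KO cultures and 66.9% ± 2.0 in DMSO-treated KO cultures (SD, n = 3 lines). In WT cultures it was 66.4% ± 2.3 under RA and 70.2% ± 1.1 under DMSO. The share of Ccnd3 was 8.41% ± 0.63 in RA-treated WT cultures and 6.23% ± 0.31 in DMSO-treated WT cultures, the highest share of this gene in any group. At 4 h of RA the Ccnd2 share was at 74.6% ± 1.3 in KO and 78.1% ± 1.4 in WT. Ccne2 stood below Ccne1 in every group but WT at 24 h of RA. Its ratio to Ccne1 there was 1.08, 1.11 and 1.13 in the 3 lines, against 0.862, 0.806 and 0.932 in DMSO-treated WT lines. In KO lines the ratio was 0.692, 0.648 and 0.574 under RA, against 0.844, 0.815 and 0.731 under DMSO. RA and DMSO lines did not overlap in either genotype, on opposite sides.

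**Figure D4:**
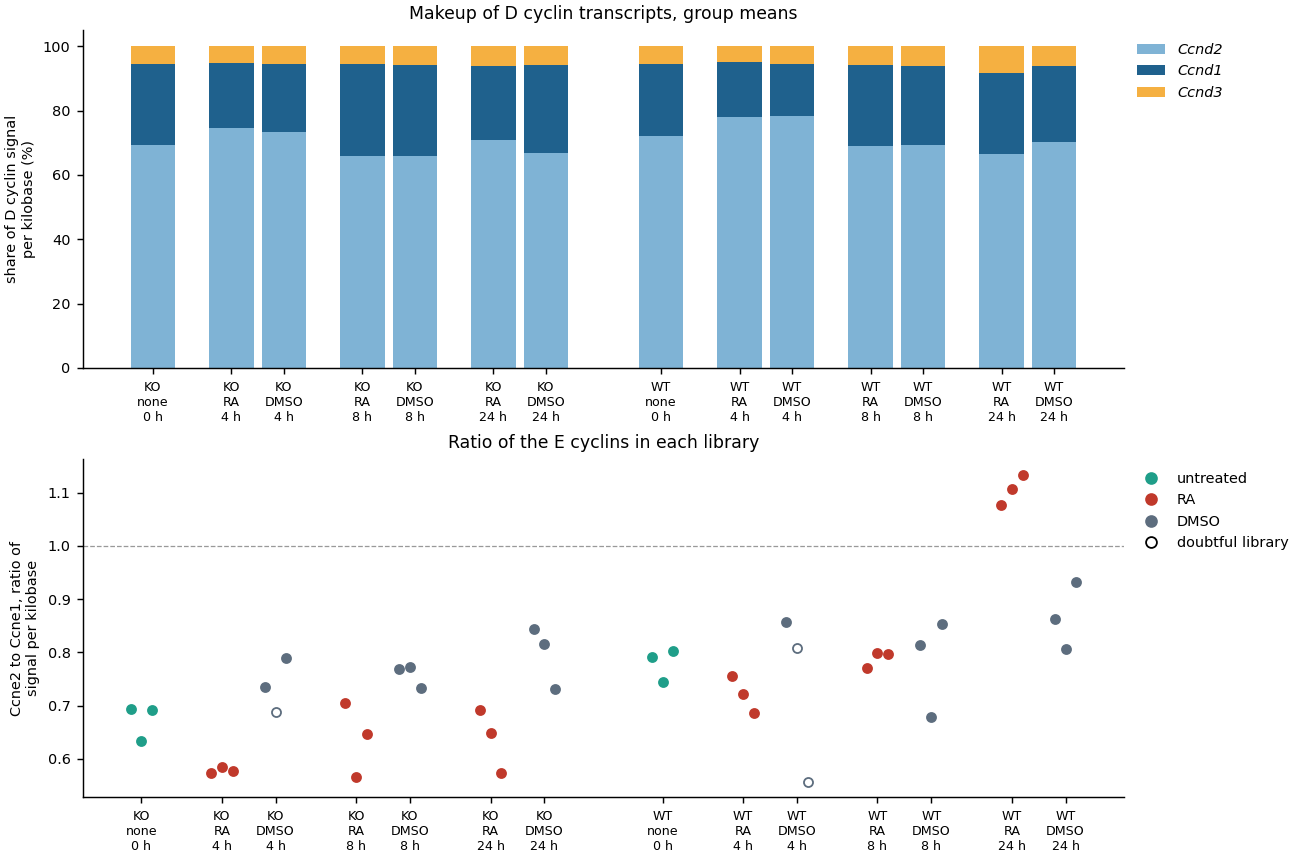
Upper panel, share of each D cyclin in their summed signal per kilobase (%, stacked means of the groups without doubtful libraries); lower panel, ratio of Ccne2 to Ccne1 per kilobase in each library, doubtful ones open. Stra8 KO groups are left of WT groups and RA left of DMSO; the ratio is above 1 only in the 3 WT libraries at 24 h of RA (1.08 to 1.13).

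The genes most like each member were named by the Pearson correlation of the 14 group means without the 3 doubtful libraries, among 11714 genes, as a description. Libraries of 1 line and shared scaling link the points. For Ccnd2 they were Igf2bp1 (r = 0.99), Chmp2a (0.982) and Midn (0.98), for Ccnd1 Dpagt1 (0.943), Eif2s3x (0.919) and Cdc42se2 (0.917). For Ccnd3 they were Hes5 (0.976), Il10rb (0.973) and Rnf126 (0.945). For Ccne1 they were Stac2 (0.947), Ilf2 (0.942) and Ctsz (0.933), for Ccne2 Usp45 (0.963), Slc30a4 (0.951) and Hook1 (0.95). For Ccna1 they were Zkscan5 (0.939), Ttc21b (0.927) and Lrriq3 (0.925), for Ccna2 Nat2 (0.93), Nuf2 (0.92) and Cenpn (0.91). For Ccno they were Zfp691 (0.95), Pgap1 (0.937) and Pdlim5 (0.934). Igf2bp1, whose protein binds RNA, had means of 12.97 in RA-treated KO cultures and 13.09 in DMSO-treated KO cultures at 24 h, and of 12.34 under RA and 12.98 under DMSO in WT. Among the members themselves r ran from -0.814 for Ccnd2 with Ccna1 to 0.732 for Ccnd2 with Ccnd3. Ccnd2, Ccnd1 and Ccnd3 were each negatively correlated with Ccne2, Ccna1 and Ccno.

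The kinases and their regulators were read from a list of 16 genes, all tested, at 24 h of RA against DMSO. In KO 1 rose and 0 fell, and in WT 2 rose and 2 fell, with median changes of -0.037 in KO and -0.025 in WT beside -0.0115 and 0.0024 over all genes tested. The counts of this and the following lists stand against 8.84% of all genes called in KO and 24.2% in WT. Setting the 3 libraries aside, 3 rose and 1 fell in KO, and 2 rose and 3 fell in WT. Cdk4, a partner of D cyclins, was -0.08 ± 0.08 in KO (limma adjusted p = 0.626) and fell by 0.54 ± 0.08 in WT (adjusted p = 1.68e-06). Its interaction was 0.47 ± 0.11 (limma adjusted p = 0.00397). Cdk6, the other partner, rose by 0.47 ± 0.14 in KO and 0.65 ± 0.14 in WT (limma adjusted p = 0.0284 and 0.000802). Cdk2, the partner of E and A cyclins, rose by 0.21 ± 0.07 in WT, and Fbxo31, which targets cyclin D1 for degradation, fell by 0.31 ± 0.08 (limma adjusted p = 0.0259 and 0.00681).

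Of 7 CDK inhibitors 1 rose and 1 fell in each genotype, with medians of -0.088 in KO and -0.078 in WT, and the same counts without the 3 libraries. Cdkn2d, the p19 inhibitor of Cdk4 and Cdk6, rose by 0.63 ± 0.13 in KO and 0.64 ± 0.13 in WT (limma adjusted p = 0.00149 and 0.000479). Cdkn1b, the p27 inhibitor, fell in KO by 0.66 ± 0.16, and Cdkn1a, the p21 inhibitor, fell in WT by 0.54 ± 0.18 (limma adjusted p = 0.00552 and 0.0313). Of 19 RB and E2F genes 1 rose and 2 fell in KO, and 0 rose and 3 fell in WT, with medians of -0.027 and -0.093. After leaving out the 3 libraries, 2 rose and 2 fell in KO, with WT as before. E2f6, a repressor, fell by 0.17 ± 0.05 in KO and 0.44 ± 0.05 in WT (limma adjusted p = 0.0485, or 0.0644 after quantile normalization, and 2.22e-07), with an interaction of 0.27 ± 0.08 (0.0196). E2f1 and E2f3, activators, fell in WT by 0.24 ± 0.07 each (limma adjusted p = 0.00836 and 0.00831). Rb1 fell by 0.39 ± 0.10 and Tfdp2, a partner of E2Fs, rose by 0.26 ± 0.08 in KO (limma adjusted p = 0.00662 and 0.0245).

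Of 24 S phase genes known as E2F targets, 1 rose and 2 fell in KO, and 1 rose and 5 fell in WT, which in WT is near the share of all genes called, 24.2%. The medians were -0.074 in KO and -0.075 in WT. With the 3 libraries left out 3 rose and 3 fell in KO, and 3 rose and 6 fell in WT. Mcm10, a replication factor, fell by 0.28 ± 0.07 in KO and 0.42 ± 0.07 in WT (limma adjusted p = 0.00499 and 1.45e-05). Chaf1b, a histone chaperone subunit, rose by 0.52 ± 0.17 in KO and fell by 0.45 ± 0.17 in WT (limma adjusted p = 0.0416 and 0.0457), with an interaction of 0.97 ± 0.23 (0.0068). Rrm2, a ribonucleotide reductase subunit, fell in KO by 0.20 ± 0.07 (limma adjusted p = 0.0473). In WT Cdt1, which licenses replication origins, fell by 0.28 ± 0.07 and its inhibitor Gmnn rose by 0.41 ± 0.11 (limma adjusted p = 0.0028 and 0.00381). The helicase subunits Mcm7 and Mcm5 fell in WT by 0.22 ± 0.06 and 0.19 ± 0.06 (limma adjusted p = 0.00575 and 0.0114). After quantile normalization Mcm7, Mcm5, the WT fall of Chaf1b and the fall of Rrm2 no longer passed (adjusted p = 0.114, 0.162, 0.0762 and 0.06).

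Of 22 other cyclins and cyclin-related genes 1 rose and 1 fell in KO, and 4 rose and 0 fell in WT, with medians of -0.04 and 0.036. Leaving out the 3 libraries, 2 rose and 4 fell in KO, and 7 rose and 2 fell in WT. Ccnjl, a cyclin J relative, rose by 2.65 ± 0.39 in KO (limma adjusted p = 1.81e-05) and was 0.95 ± 0.39 in WT (0.0783, or 6.11e-05 without the 3 libraries). Its interaction was 1.71 ± 0.55 (limma adjusted p = 0.0501, or 7.65e-06 without the 3 libraries). Ccnl2, a cyclin of splicing, fell in KO by 0.19 ± 0.06 (limma adjusted p = 0.0392, or 0.0734 after quantile normalization). In WT Cntd1, known from mouse meiosis, rose by 0.39 ± 0.13, Ccnc of the Mediator kinase module by 0.30 ± 0.08, Cables2 by 0.22 ± 0.08 and Ccny by 0.19 ± 0.05 (limma adjusted p = 0.0222, 0.00694, 0.0395 and 0.00261).

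Ccno lies in the mouse genome beside Mcidas and Cdc20b, genes of the multiciliated cell program. Of 12 genes of this locus and program, 8 were tested, and Mcidas (mean log2 level -1.62) and Gmnc (-2.34) lay under the filter level. In KO 0 were called by limma, with Plk4 at -0.17 ± 0.08 and Stil at 0.01 ± 0.13, both genes of centriole duplication (adjusted p = 0.234 and 0.981). In WT 1 rose and 1 fell, Rfx2, a transcription factor of cilia and spermatids, by 0.44 ± 0.11, and Myb by 0.55 ± 0.14 downwards (limma adjusted p = 0.00452 and 0.00454). The medians were -0.063 in KO and -0.019 in WT, and without the 3 libraries 2 rose and 2 fell in WT and 0 were called in KO. Cdc20b was -0.19 ± 0.18 in WT (limma adjusted p = 0.49).

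**Figure D5:**
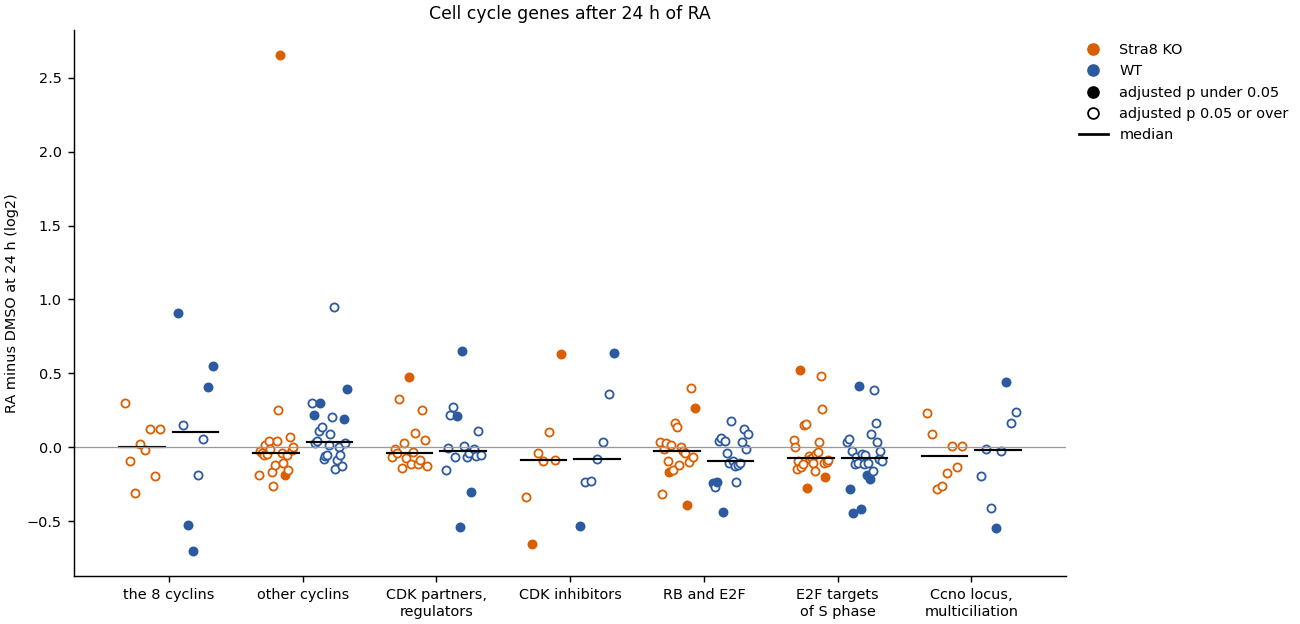
RA minus DMSO at 24 h in log2 units (vertical axis) for each tested gene of 7 lists, Stra8 KO left of WT; filled points passed an adjusted p of 0.05 and lines are medians. The 8 cyclins hold 5 filled WT points on both sides of 0, and the highest point of all is Ccnjl in KO at 2.65.

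Other cells in the cultures were read at 24 h of RA against DMSO from their marker lists. The summed level of the feeder fibroblast markers was 35570 to 40440 in RA-treated KO lines and 45290 to 60890 in DMSO-treated KO lines. It was 33230 to 50410 in RA-treated WT lines and 36160 to 55110 in DMSO-treated WT lines. The ranges were apart in KO and overlapped in WT. Col1a1 fell in both genotypes, by 0.54 ± 0.13 in KO and 0.63 ± 0.13 in WT (limma adjusted p = 0.0044 and 0.000353), the 1 called gene of 14 tested in each. The median change of the 14 was -0.334 in KO and 0.043 in WT. The germ cell markers summed to 98550 to 99070 under RA and 95830 to 99820 under DMSO in KO, and to 76190 to 82040 under RA and 96150 to 101600 under DMSO in WT. In KO 4 of 12 rose and 2 fell, and in WT 1 rose and 8 fell, and without the 3 libraries 3 fell in KO. The 6 largest called changes in WT were falls: Nanos2 -2.69 ± 0.19, Nanos3 -1.43 ± 0.16, Ret -1.26 ± 0.11, Zbtb16 -1.17 ± 0.14, Etv5 -1.16 ± 0.09 and Id4 -1.09 ± 0.25. Their limma adjusted p ran from 9.12e-12 for Nanos2 to 0.00144 for Id4. In KO Nanos2 (-0.975 ± 0.19) and Ret (-0.41 ± 0.11) fell as well (limma adjusted p = 0.000607 and 0.0148). Utf1 (1.34 ± 0.26), Sall4 (1.07 ± 0.12), Nanos3 (0.58 ± 0.16) and Gfra1 (0.32 ± 0.08) rose there (limma adjusted p = 0.000644, 5.5e-07, 0.0201 and 0.0126). Of the 6 Sertoli markers tested 0 were called in KO and 1 rose in WT, and of the 3 Leydig markers 0 were called in either. Of the 3 macrophage markers 0 were called in KO (1 fell without the 3 libraries) and 2 fell in WT, and of the 4 endothelial markers 1 rose in KO and 2 fell in WT. Of the 6 spermatocyte and spermatid markers tested 0 were called in KO, and 1 rose and 1 fell in WT. The part of these shifts in the cyclin results was not tested.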

How the data were processed

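The 42 library columns of 1 deposited table hold log2 expression values per gene (-4.5 to 18.02), scaled between libraries by the authors. Per the labels, RNA with a RIN of at least 9.2 went into stranded mRNA libraries. The submitters' processing notes name GRCm38.p4, STAR 2.5.1b and DESeq; the read counter and the strand setting are not given there. Mean signals are the authors' deposited mean of scaled counts, which stands beside 1 of their comparisons (24 h of RA against DMSO in KO). The authors' deposited fold changes and adjusted p are of other kinds of fit. They served to find the sign of their interaction and to set the sizes of the Ccnd1 and Ccnd2 changes beside those found here. They gave no call here. The labels list 43 samples, 2 of them for WT17 at 24 h of RA, which has 1 column.

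Genes that reached log2 of 10 in 3 or more libraries were fitted with limma 3.58.1 (R 4.3.3; trend and robust options; 1 mean per group; two-sided), and p-values were adjusted over all 16297 genes for each of 23 comparisons. A value ± SE is a log2 difference. Rises and falls were called at an adjusted p of 0.05. The fit was tested on simulated data. Marker sums add 2 to the power of each value. Replicate numbers are the recurring line names in the labels, and 97 of 102 same-line pairs of libraries had deviations from the group means correlated above 0.1, against 22 of 204 pairs of different lines. Alternatives were the doubtful libraries left out, lines left out in turn, a replicate block, quantile normalization, other filters and options, and fits on the compared groups. Where a member's p-value is given with the replicate block and without the 3 libraries, neither of these changes alone passed. All 8 members were named, and of each list up to 6 genes with the largest called changes at 24 h, or the 2 highest in level where none was called. For Sertoli, Leydig, macrophage, endothelial, and spermatocyte and spermatid markers, only counts of calls are given at 24 h. The members and lists were chosen with earlier results of these data known.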

Additional observations from a re-analysis of the deposited data

Results flagged for a closer look

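The RA effect at 24 h differed between the genotypes, by the test of the difference itself, for Ccnd2 and Ccne2. For Ccnd2 the effect in KO minus that in WT was 0.73 on the log2 scale (limma adjusted p = 0.00116), with RA minus DMSO at 0.02 in KO and -0.70 in WT. For Ccne2 it was -0.61 (limma adjusted p = 0.00456), with RA minus DMSO at -0.20 in KO and 0.41 in WT. All 3 WT lines fell for Ccnd2 and rose for Ccne2, while 2 of 3 KO lines were lower for Ccnd2 and 3 of 3 for Ccne2. Both calls held without the 3 doubtful libraries, without any 1 line and after quantile normalization.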

How the results depend on the processing

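No member changed direction in a called result under any alternative. Read depth is unknown, so its limit on the low genes Ccna1 and Ccno cannot be given. The counts of called members at 24 h of RA (5 in WT against DMSO, 2 for the interaction, 6 for KO against WT) and in WT between 8 and 24 h of RA (5) stayed within 1.5 times of themselves, except that the interaction had 4 with the replicate block and without the 3 doubtful libraries.

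The cause of the other shifts was not tested. In the main fit all 14 groups share 1 estimate of the spread. The 3 libraries therefore also enter the standard errors of comparisons that do not hold them. For Ccnd3 in WT at 8 h the RA change was -0.2204 with and without them. Its SE was 0.0841 with all libraries and 0.0625 without the 3. RA against DMSO in WT at 4 h had 1 call, 0 without the 3 libraries, 0 with the replicate block as well, 0 on the compared groups only, and 0 to 2 with libraries or lines left out. In WT at 8 h it had 0, against 2 without the 3 libraries, 1 with the replicate block, 4 with both, and 0 to 1 with libraries left out. In KO the replicate block without the 3 libraries gave 2 calls at 4 h, 1 at 8 h and 2 at 24 h, where 0 stood, and at 24 h each change alone gave 1. RA at 4 h against untreated had 3 calls in WT (1 after quantile normalization, 0 to 3 with lines left out) and 2 in KO (4 with the block and without the 3 libraries, 1 after quantile normalization, 0 with no filter, 4 on the compared groups, 0 to 3 with lines left out). RA at 24 h against 8 h in KO had 2 (4, 1 and 4 under the block without the 3 libraries, quantile normalization and the compared groups; 1 to 3 with lines left out). DMSO at 8 h against untreated had 1 in WT (2 with the block, 2 with it and without the 3 libraries, 0 with no filter, 2 on the compared groups, 0 to 1 with lines left out) and 0 in KO (1 without the 3 libraries, 1 with the block, 4 with both, 2 on the compared groups). DMSO at 24 h had 0, and 1 in each genotype with the block and without the 3 libraries. KO against WT at 8 h of RA had 1 (0 with no filter, 0 on the compared groups, 0 to 1 with lines left out). No paired analysis was possible for KO against WT because each line has 1 genotype. The replicate block on its own ended no call.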
